A study of Mus musculus with 7 samples.

Results

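The genes followed here are 9 inhibitors and brakes of the cell cycle, Cdkn1a, Cdkn1b, Cdkn2c, Btg1, Btg2, Gadd45a, Gadd45g, Ccng1 and Ccng2, of 32285 genes counted by single-cell RNA-seq in mouse neural crest cells (NCCs). They were chosen by name, and all 9 were found by symbol in the gene lists of the 7 libraries. NCCs are a migratory population that leaves the dorsal neural tube and forms, among others, arch mesenchyme, glia, peripheral neurons and smooth muscle of the outflow tract. They were sorted for EGFP, which a Wnt1-Cre driver switches on. Wnt1-Cre also recombines in dorsal neural tube cells, so that the sort holds neural progenitor cells and neurons as well.

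The libraries were 1 control at embryonic day (E) 8.5, 1 control at E9.5, 2 controls at E10.5, 1 Tbx1 null at E9.5 and 2 Tbx1 null at E10.5. Controls carried Wnt1-Cre/+ and ROSA-EGFPf/+. The libraries titled Tbx1 null also carried Wnt1-Cre/+ and ROSA-EGFPf/+, but their genotype label reads Tbx1+/-; the supplement of the study gives them as Tbx1-/-, and the title was followed here. Between 70 and 670 UMIs (unique molecular identifiers, counted transcripts) of Tbx1 lay in each library, null libraries included; the part of Tbx1 that the allele lacks is not given in the sources used here, so these counts do not check the labels. The null allele is present in every cell of the embryo, not in NCCs alone. Each library pooled embryos of 1 genotype on a mixed Swiss-Webster background, and their sex was not evaluated. At E8.5 the anterior part of the embryo with the head was taken, at E9.5 the pharyngeal apparatus with the heart, and at E10.5 the same region without the first arch. Stage and dissected tissue therefore cannot be told apart, and the E8.5 library also differed in kit and sequencer. By the labels, the libraries of null E9.5 and Tbx1 null E10.5 replicate 1 were made with an earlier version of the kit than the other libraries of these stages.

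After filtering, 53529 cells were kept (5587 to 9557 per library), with library medians of 14834 to 22882 UMIs per cell, and 50208 of them fell into 4 exclusive classes set by summed UMIs of marker genes. Neuronal cells had 3 or more UMIs of Tubb3 and Stmn2, Sox10 cells 3 or more of Sox10, mesenchymal cells 3 or more of Twist1, Prrx1, Prrx2 and Pdgfra, and neural progenitor cells 3 or more of Sox1, Sox2, Sox3, Pax6 and Hes5. Mesenchymal cells were split into an Acta2/Tagln group (smooth muscle genes), a Foxf1 group, a Hox 3 group (Hoxa3, Hoxb3 and Hoxd3, genes of the posterior arches) and the remaining cells. Further genes typical of each class checked these names. The mesenchymal ones (Dlx2, Col1a1, Snai1 and Prrx1, the last also in the gate) summed to 241 to 765 CPM (UMIs of a gene per 1000000 UMIs of the summed cells) in mesenchymal cells to 57.2 to 172 in Sox10 cells, to 9.13 to 50.4 in neuronal cells and to 4.47 to 12.6 in neural progenitor cells. The classes of the E8.5 library did not bear out their names as well as those of the others. Its neuronal cells held 30.8 CPM of further neuronal genes, against a median of 565 over the 7 libraries. Further neural progenitor genes summed to 143 CPM in its neural progenitor cells, against a median of 1290 over the libraries, and to 139 to 150 in its other classes. Its mesenchymal cells held more of the further Sox10-class genes (327 CPM) than of the mesenchymal ones (241), and Sox10 itself at 57.4 CPM. Later neuronal classes were mixed as well. Further neural progenitor genes exceeded further neuronal ones there in control E9.5 (614 against 185 CPM) and null E9.5 (585 against 269). So they did in control E10.5 replicate 1 (1140 against 850) and Tbx1 null E10.5 replicate 1 (784 against 565). They were lower in control E10.5 replicate 2 (471 against 1530) and Tbx1 null E10.5 replicate 2 (792 against 886). Without E8.5, 1 of 38 calls between cell classes ended, that of Cdkn1a in neuronal against neural progenitor cells. The 3 calls in Acta2/Tagln and 2 in Foxf1 cells among these 38 came from fits without that library, so they could not end. The library of Tbx1 null E10.5 replicate 2 stood apart: blood genes were highest there in every class (4.81 to 9.52 CPM, at most 2.61 elsewhere), and Tubb3 and Stmn2 reached 109 CPM in its mesenchymal cells, against 17.0 to 21.1 in the other E10.5 libraries. Libraries shared 0 to 44 cell barcodes with one another.

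As background, a cell enters S phase when cyclins activate their kinases. Cdkn1a (p21) and Cdkn1b (p27) bind and inhibit cyclin-kinase complexes, and Cdkn2c (p18) binds Cdk4 and Cdk6 and keeps cyclin D away from them. Btg1 and Btg2 are antiproliferative proteins that act with the mRNA deadenylation machinery, and Btg2 is a known mark of neural progenitor cells about to divide into neurons. Gadd45a and Gadd45g are small stress-response proteins that slow the passage to mitosis, and Gadd45g is also part of neurogenesis programs. Ccng1 and Ccng2 are unconventional cyclins known for growth arrest: Ccng1 is a transcriptional target of p53, as are Cdkn1a, Btg2 and Gadd45a, while Ccng2 is a target of FoxO factors and rises in resting cells.

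The 9 genes are protein coding and lie on 8 chromosomes (build GRCm38): Cdkn1a at chr17:29090976-29100727 and Cdkn1b at chr6:134920401-134925513, Cdkn2c at chr4:109660876-109667189, Btg1 at chr10:96617006-96622809, Btg2 at chr1:134075170-134079120, Gadd45a at chr6:67035096-67037457, Gadd45g at chr13:51846678-51848468, Ccng1 at chr11:40748552-40755311 and Ccng2 at chr5:93267257-93276231. RefSeq gives 11 promoters for them, each from 250 bases before to 50 bases after a transcription start. Promoters of the 4 genes on which most of the results turn are printed, 1 for each gene, 5′ to 3′ on the strand of the gene (GRCm38.p6), with the matches named for each gene in capitals. For Cdkn1a the window is chr17:29090729-29091028 on the plus strand and the capitals mark 2 matches to the p53 motif, at -73 to -64 and -51 to -42 from the start. RefSeq gives Cdkn1a another start, whose window, chr17:29093519-29093818, is not printed and held none of the 9 motifs searched. For Ccng1 it is chr11:40755237-40755536 on the minus strand, with 1 match to the p53 motif at -185 to -176. For Btg2 it is chr1:134079106-134079405 on the minus strand, and the capitals mark a cAMP response element, TGACGTCA, at -166 to -159. For Gadd45g it is chr13:51846425-51846724 on the plus strand, and the capitals mark 2 E-boxes, CACGTG at -142 to -137 and CAGCTG at -55 to -50, the kind of sequence that proneural and other bHLH factors bind.
Cdkn1a: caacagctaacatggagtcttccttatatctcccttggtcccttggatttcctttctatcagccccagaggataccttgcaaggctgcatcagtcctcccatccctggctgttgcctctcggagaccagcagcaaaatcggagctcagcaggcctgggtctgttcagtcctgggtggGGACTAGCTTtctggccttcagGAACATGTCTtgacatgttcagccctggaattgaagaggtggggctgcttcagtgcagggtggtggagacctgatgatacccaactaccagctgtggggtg
Ccng1: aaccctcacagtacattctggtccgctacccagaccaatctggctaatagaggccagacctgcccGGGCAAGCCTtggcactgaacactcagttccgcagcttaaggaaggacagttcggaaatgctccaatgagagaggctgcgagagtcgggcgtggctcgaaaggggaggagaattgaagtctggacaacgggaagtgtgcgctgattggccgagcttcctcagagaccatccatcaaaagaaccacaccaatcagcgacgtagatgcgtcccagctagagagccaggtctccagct
Btg2: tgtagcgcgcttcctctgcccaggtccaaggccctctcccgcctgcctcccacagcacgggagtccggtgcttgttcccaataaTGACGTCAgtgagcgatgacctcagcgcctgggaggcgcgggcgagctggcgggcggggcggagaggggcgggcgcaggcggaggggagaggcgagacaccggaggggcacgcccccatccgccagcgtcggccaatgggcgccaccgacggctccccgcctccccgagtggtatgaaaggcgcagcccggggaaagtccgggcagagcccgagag
Gadd45g: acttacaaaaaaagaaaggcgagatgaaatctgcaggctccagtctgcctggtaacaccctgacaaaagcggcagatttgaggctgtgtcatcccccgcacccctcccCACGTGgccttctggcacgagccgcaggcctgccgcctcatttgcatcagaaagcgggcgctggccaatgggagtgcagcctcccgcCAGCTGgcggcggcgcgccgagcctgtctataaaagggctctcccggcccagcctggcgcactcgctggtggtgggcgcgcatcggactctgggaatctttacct

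These letters were searched on both strands, and a match describes the sequence and is not a site shown to be bound. The p53 motif searched was the pattern RRRCWWGYYY, where R is A or G, W is A or T and Y is C or T. A match is to a single such stretch and not to a full p53 response element. Over 32851 mouse promoters of the same length, the p53 motif was found in 8.36%, TGACGTCA in 1.79%, CACGTG in 7.15% and CAGCTG in 16.3%. Among the other members, Gadd45a held 1 match to the p53 motif at -40 to -31, and Btg1 held the FoxO motif GTAAACA at -204 to -198, found in 3.65% of promoters. E-boxes were not limited to Gadd45g. CAGCTG lay at 38 to 43 in the printed Cdkn1a window, left in lower case, and CACGTG at 35 to 40 in a Cdkn2c window. Ccng2 held none of the 9 motifs searched in this window.

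The members differed in where and when they were detected. UMI counts at transcript ends do not allow levels to be set side by side between genes, so each gene is followed across cells and libraries. Levels are CPM of summed cells after TMM scaling.

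**Figure D1:**
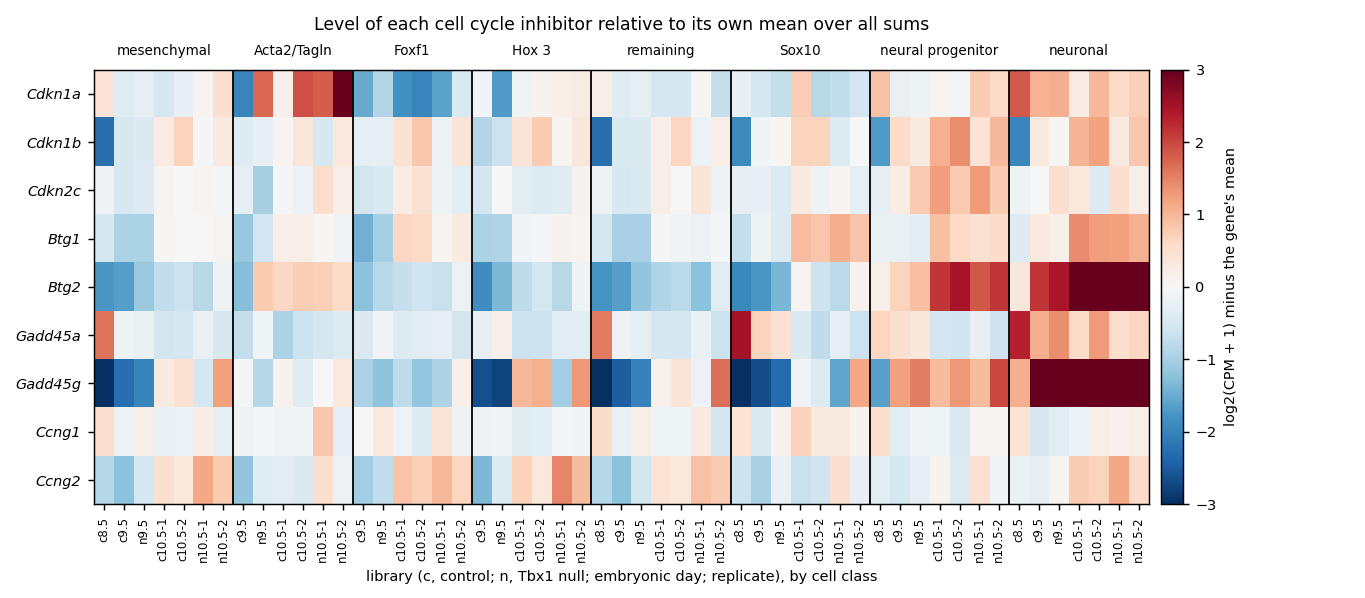
Level of each of the 9 genes in each cell class and library, as log2(CPM + 1) minus the gene's mean over all sums shown (colours end at -3 and 3); rows are genes and columns are libraries within 8 cell classes, those with fewer than 20 cells of the class left out. Gadd45g and Btg2 are highest in neuronal cells, and Cdkn1b and Gadd45g are lowest at E8.5 in the classes that library holds.

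Cdkn1b was low at E8.5 in each of the 4 classes and higher in every later library. In mesenchymal cells it was at 3.27 CPM at E8.5, at 13.7 and 14.2 in the control and null libraries of E9.5, at 23.3 and 31.8 in the controls of E10.5 and at 18.8 and 24.3 in their null counterparts. In neural progenitor cells it was at 5.31 CPM at E8.5 and between 23.7 and 53.3 in the other 6 libraries. With 1 library of another kit and dissection at E8.5, this difference has no replicate check.

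Gadd45a ran the other way, with its highest level at E8.5 in each of the 4 classes. Mesenchymal cells held 43.2 CPM at E8.5 and 8.67 to 11.7 in the later libraries, and Sox10 cells held 78.8 CPM at E8.5 and 7.42 to 21.5 later. The step was small in neural progenitor cells, with 21.1 CPM at E8.5 and 8.26 to 18.7 later, and larger in neuronal cells, with 70.5 and 19.6 to 36.6.

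Btg1 was found in the largest share of mesenchymal cells among the members. After thinning each cell to 5000 UMIs, 12.2 to 36.8% of mesenchymal cells held a Btg1 UMI, against 42.7 to 81.7% before thinning. Cdkn1a and Cdkn2c were at the other end, with 0.387 to 1.33% and 0.152 to 0.521% of thinned mesenchymal cells. Ccng1 varied least of the better detected genes, and its level in mesenchymal cells lay between 8.74 and 16.0 CPM in the 7 libraries.

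The first comparison asked how the inhibitors differ between cells with and without transcripts of the proliferation genes Mki67 and Top2a. With 1 UMI or more of either gene were 89.5 to 97.1% of the mesenchymal cells of a library (55.4 to 80.2% after thinning), so the cells without them were few. The 2 sums of each library were compared with the library as a block in edgeR's quasi-likelihood test with Benjamini-Hochberg adjustment over all genes tested, as were all class comparisons that follow. Cells without these UMIs were also shallower in every library of the 3 classes tested, with medians of 10936 to 20924 UMIs in mesenchymal cells against 17047 to 25867, so the split was made again on cells thinned to 5000 UMIs.

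In mesenchymal cells 7 of the 9 members differed, 3 higher and 4 lower in cells with Mki67 or Top2a UMIs. The test called 34.6% of all 14505 genes, 23.4% higher and 11.2% lower, so a call by itself is common here. The median log2 fold change was -0.17 over the members and 0.05 over all genes.

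Cdkn1a showed the largest difference. Its level in cells with Mki67 or Top2a UMIs was at 4.0 CPM at E8.5, 2.06 and 1.84 in the control and null at E9.5, 1.21 and 2.0 in the 2 E10.5 controls and 2.69 and 2.5 in the 2 E10.5 nulls. In cells without them the same libraries held 7.44, 1.73, 11.7, 9.09, 6.4, 12.7 and 28.5 CPM. Cdkn1a was thus lower in cells with proliferation transcripts in 6 of 7 libraries, control E9.5 being the exception (log2 fold change -2.28 ± 0.31 SE, edgeR adjusted p = 0.00022), and it stayed lower with the thinned split (-1.70, adjusted p = 0.00038). The levels without proliferation transcripts rest on few cells: of 125 mesenchymal cells with 3 or more Cdkn1a UMIs, 17 lacked Mki67 and Top2a UMIs over the 7 libraries, and 1 of these, in Tbx1 null E10.5 replicate 2, held 71 Cdkn1a UMIs. Without that library the difference was -2.09 (adjusted p = 0.00083). Acta2/Tagln cells, that cell among them, moved with the split: they were 4.72 to 14.6% of the cells without and 1.0 to 5.2% of those with these UMIs in the 6 later libraries, the share being higher without them in all but Tbx1 null E10.5 replicate 2. Their part in the Cdkn1a difference was not tested.

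Cdkn2c and Ccng2 went the opposite way. Cdkn2c averaged 0.88 CPM with and 0.179 CPM without Mki67 or Top2a UMIs and was higher in 7 of 7 libraries (log2 fold change 1.91 ± 0.49, edgeR adjusted p = 0.0087), but it was too low to be tested with the thinned split. In cells without these UMIs it was not detected in control E8.5, control E9.5 and Tbx1 null E10.5 replicate 1, so its levels there lie at the floor. Ccng2 was higher in 6 of 7 libraries (0.58 ± 0.12, edgeR adjusted p = 0.0025; 0.78 with the thinned split, adjusted p = 2e-05), for example 23.2 against 15.1 CPM and 20.6 against 11.4 CPM in the controls of E10.5. At control E9.5 it was at 6.15 CPM with and 6.93 without these UMIs. Cdkn1b was also higher in 6 of 7 libraries, by a smaller step (0.44 ± 0.11, edgeR adjusted p = 0.0071; 0.42 with the thinned split, adjusted p = 0.005), a call lost with DESeq2 (0.35, adjusted p = 0.055).

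Gadd45g was lower in 6 of 7 libraries (-0.60 ± 0.12, edgeR adjusted p = 0.0015; -0.34 with the thinned split, adjusted p = 0.026). Btg1 was lower by a small step in 6 of 7 libraries (-0.34 ± 0.07, edgeR adjusted p = 0.0022) and Btg2 in 5 of 7 (-0.68 ± 0.22, edgeR adjusted p = 0.027). These last 2 calls ended with the thinned split, at -0.10 (adjusted p = 0.31) for Btg1 and -0.25 (adjusted p = 0.37) for Btg2. The Btg2 call also ended with doublets kept (-0.34, adjusted p = 0.2) and with gates on thinned cells (-0.64, adjusted p = 0.056). Gadd45a (-0.17 ± 0.12, edgeR adjusted p = 0.31) and Ccng1 (-0.02 ± 0.10, edgeR adjusted p = 0.96) did not pass the test.

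Neural progenitor cells gave 6 calls of 9, 3 in each direction, where 19.5% of all genes were called, 11.7% higher and 7.78% lower. Cdkn1b was higher with Mki67 or Top2a UMIs in 7 of 7 libraries (0.85 ± 0.13, edgeR adjusted p = 0.00012): it was at 5.4 against 4.07 CPM at E8.5, 30.0 against 12.2 in control E9.5, and 42.8 against 23.8 and 56.5 against 28.5 in the controls of E10.5. Ccng2 (1.06 ± 0.24, edgeR adjusted p = 0.0042) and Cdkn2c (1.48 ± 0.44, edgeR adjusted p = 0.022) were also higher in 7 of 7, the Cdkn2c call being lost with the thinned split (0.28, adjusted p = 0.75), with gates on thinned cells (0.93, adjusted p = 0.22) and with DESeq2 (1.42, adjusted p = 0.11). The class thus shared these 3 higher members with mesenchymal cells.

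The 3 members lower in neural progenitor cells with Mki67 or Top2a UMIs were Gadd45g, Btg2 and Btg1. All 3 were higher in neuronal than in neural progenitor cells, as given below. The part of cells near the neuronal state in these differences was not tested. Gadd45g averaged 34.7 CPM with and 99.4 without them (-1.60 ± 0.27, edgeR adjusted p = 0.00039). It was at 4.15 against 13.4 CPM at E8.5, 37.3 against 126 and 50.2 against 72.5 at E9.5, 32.5 against 63.0 and 18.8 against 234 in the controls of E10.5, and 27.8 against 119 and 71.9 against 68.9 in the null libraries of E10.5. The level was lower in 6 of 7 libraries, Tbx1 null E10.5 replicate 2 being the exception. Btg2 (-1.0 ± 0.15, edgeR adjusted p = 0.00011) and Btg1 (-0.45 ± 0.07, edgeR adjusted p = 0.0001) were lower in 7 of 7. With the thinned split Cdkn1b (0.72, adjusted p = 0.0003), Ccng2 (1.2, adjusted p = 4.5e-05), Gadd45g (-1.41, adjusted p = 4.5e-05), Btg2 (-0.71, adjusted p = 0.00015) and Btg1 (-0.28, adjusted p = 0.0035) passed as well. Cdkn1a, the member with the largest difference in mesenchymal cells, did not pass the test here (-0.14 ± 0.37, edgeR adjusted p = 0.84).

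**Figure D2:**
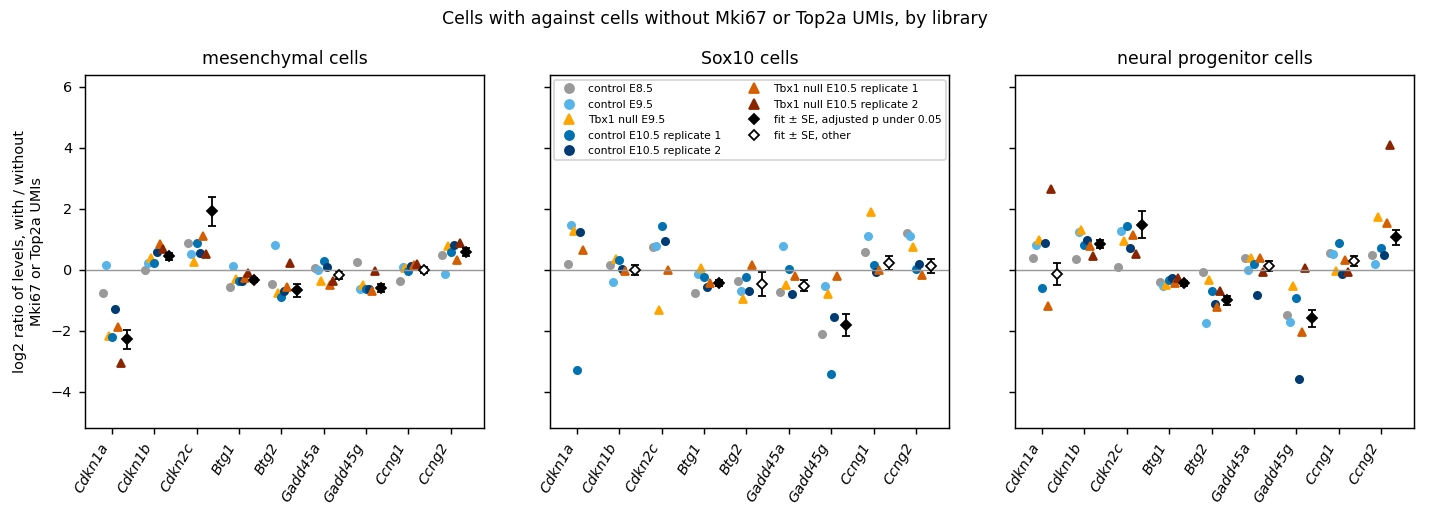
Difference between cells with and without Mki67 or Top2a UMIs for each of the 9 genes in mesenchymal, Sox10 and neural progenitor cells, as the log2 ratio of (CPM + 1). Small points are libraries, the diamond with its bar is the fitted log2 fold change ± SE, and a filled diamond marks an adjusted p under 0.05; Cdkn1a and Cdkn2c have no fit in Sox10 cells. Cdkn2c, Cdkn1b and Ccng2 lie to the higher side and Gadd45g and Btg1 to the lower side in both mesenchymal and neural progenitor cells.

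In Sox10 cells, where 5.97% of genes were called over 6 libraries, 5.11% higher and 0.865% lower, 2 of the 7 members tested differed, both lower. Btg1 (-0.45 ± 0.10, edgeR adjusted p = 0.0073) was lower with Mki67 or Top2a UMIs in 5 of 6 libraries, and this call ended with the thinned split (-0.3, adjusted p = 0.08) and with the cell filter of 200 genes and 5% mitochondrial UMIs (-0.43, adjusted p = 0.057). Gadd45g was lower in 6 of 6 (-1.81 ± 0.37, edgeR adjusted p = 0.0035), but its direction turned with the thinned split (0.12 ± 0.42, adjusted p = 0.96), the call ended with the other cell filter (-1.03, adjusted p = 0.22) and with the split at 2 UMIs (-0.97, adjusted p = 0.059), and its value was near 0 when the cell classes were set on thinned cells (-0.03 ± 0.32, adjusted p = 0.99). Neuronal cells were described without a test. Gadd45g in them spanned 31.1 to 208 CPM with and 103 to 852 CPM without Mki67 or Top2a UMIs, and was higher without them in 7 of 7 libraries.

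Other inhibitors of the cell cycle, a list of 13 genes, also split by direction in mesenchymal cells: 4 were higher and 4 lower in cells with Mki67 or Top2a UMIs (list median -0.19). The higher ones included the mitotic kinase inhibitors Pkmyt1 (0.75) and Wee1 (0.71) and the Cdk4 and Cdk6 inhibitor Cdkn2d (0.65). The lower ones included Gadd45b (-1.68), Cdkn1c or p57 (-1.39) and Cdkn2b (-1.21). Neural progenitor cells gave 4 higher, with Cdkn2d at 1.18, and 2 lower, with Cdkn1c at -1.13 and Gadd45b at -1.12, of 11 tested. Of 16 other p53 targets, a list that also counts Trp53, the p53 gene itself, 3 were higher and 4 lower in mesenchymal cells (Perp at -2.37 and Pmaip1 at -1.83). Of 7 tested FoxO targets 3 were lower and none higher, although Ccng2, itself a FoxO target, was higher. Among 19 cyclins, kinases and replication genes 14 were higher and 1 lower (Cdk1 at 1.91, Ccnb1 at 1.88). Of 13 immediate-early and heat shock genes, which respond to handling of tissue, 5 were lower and 1 higher (Atf3 at -1.76, Fos at -1.52), and their part in the differences of Cdkn1a, Btg2 and Gadd45g was not tested.

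The second comparison set neuronal cells against neural progenitor cells, which are not shown to be 1 lineage. Here 8 of the 9 members differed between neuronal and neural progenitor cells, 6 higher and 2 lower in neuronal cells, where 40.2% of 15164 genes were called, 20.8% higher and 19.4% lower. The members' median log2 fold change was 0.58, and that of all genes was 0.0.

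Gadd45g rose most. In neural progenitor cells it was at 4.87 CPM at E8.5, 41.2 and 51.3 in control and null at E9.5, 34.0 and 43.3 in the controls of E10.5 and 33.6 and 71.7 in their null counterparts. In neuronal cells of the same libraries it was at 37.3, 201, 244, 318, 249, 224 and 241 CPM. The neuronal level was the higher one in 7 of 7 libraries (log2 fold change 2.52 ± 0.16, edgeR adjusted p = 3.2e-05).

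Btg2 was higher as well, at 9.87 CPM in neuronal against 8.89 in neural progenitor cells at E8.5. At E9.5 it was at 36.8 against 12.6 in the control and 45.6 against 15.0 in the null. In the controls of E10.5 it was at 93.9 against 37.1 and 93.0 against 46.4. The null libraries of E10.5 held 73.8 against 30.4 and 78.6 against 37.2. The Btg2 difference was seen in 7 of 7 libraries and was smallest at E8.5 (1.17 ± 0.15, edgeR adjusted p = 0.00085). Gadd45a (1.25 ± 0.15, edgeR adjusted p = 0.00064) and Ccng2 (0.58 ± 0.11, edgeR adjusted p = 0.0037) were higher in 7 of 7 libraries as well. Btg1 was higher in 6 of 7 (0.49 ± 0.10, edgeR adjusted p = 0.0055).

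Cdkn1a passed the test by little (0.75 ± 0.25, edgeR adjusted p = 0.041). This call ended with the other cell filter (0.71, adjusted p = 0.071), without the E8.5 library (0.67, adjusted p = 0.083) and without Tbx1 null E10.5 replicate 2 (0.87, adjusted p = 0.051), and over the 4 libraries of E10.5 the estimate was 0.19 (adjusted p = 0.50). Cdkn1b was slightly lower in neuronal cells in 7 of 7 libraries (-0.19 ± 0.05, edgeR adjusted p = 0.011), a call that ended with gates on thinned cells (-0.09, adjusted p = 0.16) and over the 4 libraries of E10.5 (-0.15, adjusted p = 0.055). Cdkn2c was lower in 6 of 7 (-0.90 ± 0.25, edgeR adjusted p = 0.02). The Cdkn2c call ended without Tbx1 null E10.5 replicate 2 (-0.88, adjusted p = 0.056). Ccng1 did not pass the test (0.04 ± 0.10, edgeR adjusted p = 0.75).

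Neural progenitor and neuronal cells were then ordered by their Tubb3 and Stmn2 UMIs, in steps of 0, 1 to 2, 3 to 9, 10 to 29 and 30 or more, and levels were taken as unscaled CPM, the UMIs of a gene over all UMIs of the step. The steps up to 2 UMIs are neural progenitor cells and those from 3 are neuronal cells. The number of UMIs also follows a cell's depth. The neuronal class also held crest markers that the progenitor class held at a lower level, since 3 or more Sox10 UMIs did not keep a cell out of it. Sox10 was at 14.0 to 80.8 CPM in neuronal cells against 0.437 to 4.33 in neural progenitor cells, Foxd3 had medians over libraries of 20.3 and 1.27, and Ets1 of 21.1 and 1.69. The steps are therefore not shown to be 1 lineage, and the part of these cells in the differences between the classes was not tested.

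Gadd45g reached its top before the last step. In control E10.5 replicate 1 it was at 28.7, 40.2, 142.3, 935.6 and 361.7 unscaled CPM over the 5 steps, and in replicate 2 at 20.2, 71.7, 242.9, 687.4 and 110.0. In control E9.5 the last steps, at 466.5 and 463.3, were alike. The level was highest in cells with 10 to 29 UMIs in 6 of 7 libraries, the exception being E8.5, whose last step held 21 cells and reached 714.7 after 63.5.

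Btg2 behaved in this way only in part of the libraries. From the step of 10 to 29 UMIs to that of 30 or more it fell from 226.9 to 83.3 and from 220.2 to 53.5 in the controls of E10.5. In the null libraries it went from 113.9 to 92.8 at E9.5 and from 153.4 to 139.7 and 141.5 to 105.6 at E10.5, a smaller step down. In the controls of E8.5 (9.68 to 77.8) and E9.5 (65.4 to 117.6) it went up.

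Cdkn1a in the last step differed between the libraries of different stages. It was at 205.2 unscaled CPM at E8.5, 41.3 in control E9.5 and 32.7 in null E9.5, but at 5.21 and 8.46 in the controls and 12.1 and 7.85 in the null libraries of E10.5. All 4 libraries of E10.5 lay below all 3 earlier ones. This separation was not tested, and its share over all genes was not taken. In the earlier libraries this step held few cells, 21, 78 and 84, against 623 to 1625 at E10.5. How the Cdkn1a UMIs were spread over these cells was not taken, and stage cannot be told apart from the tissue dissected.

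Cdkn2c ran out along the same order. It went from 4.32 to 0.27 and from 2.79 to 0 unscaled CPM from the first to the last step in the controls of E10.5, and from 4.21 to 0.14 and from 3.55 to 0.58 in the null libraries of E10.5. The last step held 1 Cdkn2c UMI at E8.5, 0 in control E9.5 and 2 in null E9.5, too few to place these libraries.

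**Figure D3:**
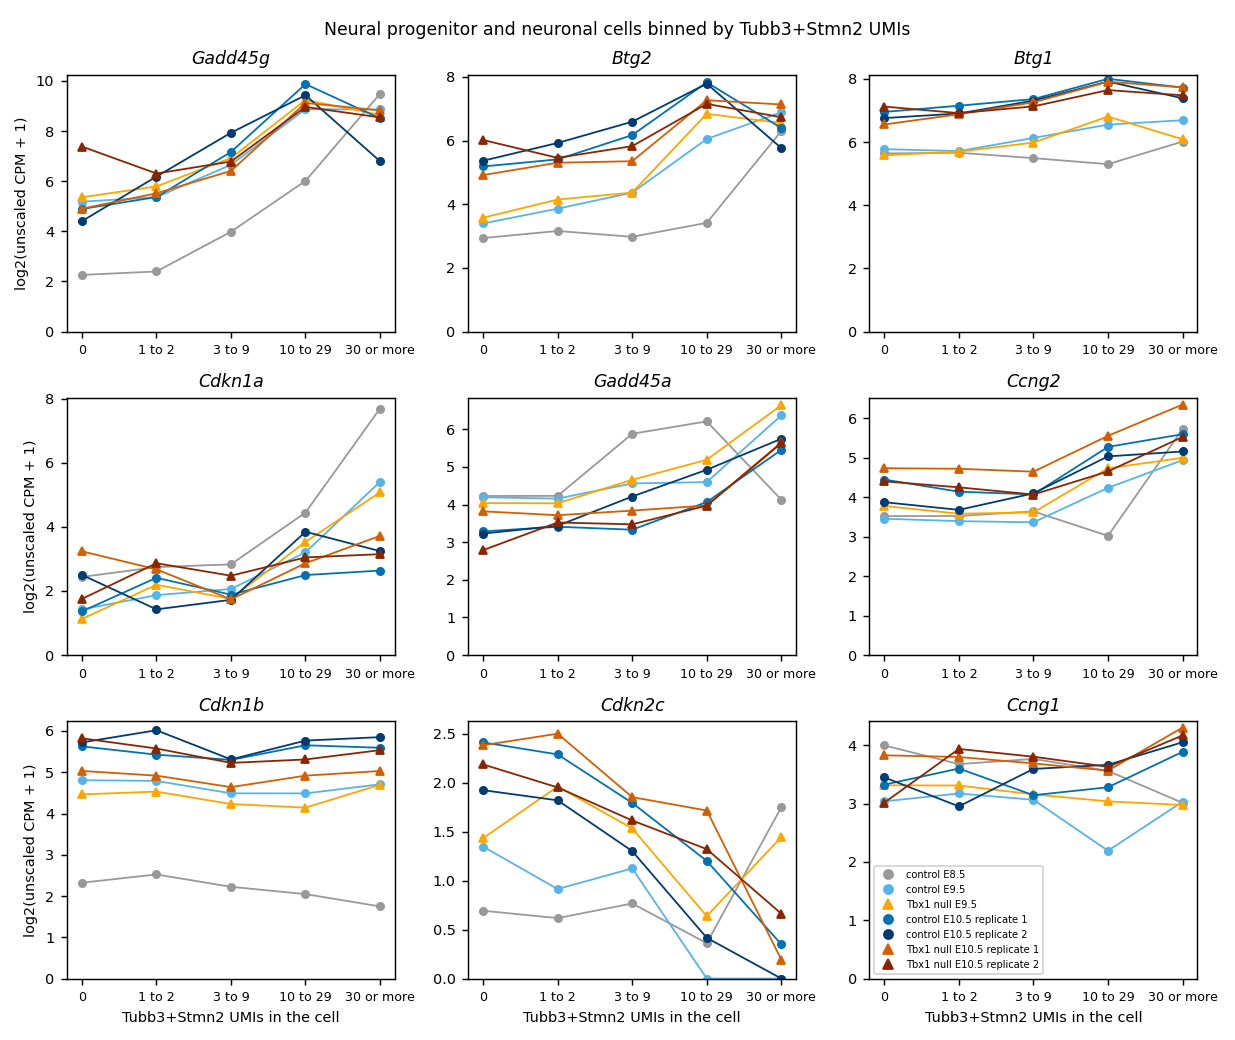
Level of each of the 9 genes in neural progenitor and neuronal cells, as log2(unscaled CPM + 1), against the number of Tubb3 and Stmn2 UMIs of the cells in 5 steps; each line is 1 of the 7 libraries. Gadd45g peaks at 10 to 29 UMIs in 6 of 7 libraries, Ccng2 is higher at the last step than at 3 to 9, and Cdkn1a separates the E8.5 and E9.5 libraries from those of E10.5 at the last step.

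Later neuronal cells, with 30 or more Tubb3 and Stmn2 UMIs, were tested against early ones, with 3 to 9. Of the 9 members 7 were higher and 1 lower in later cells, with 62% of all genes called, 29.3% higher and 32.7% lower, and medians of 1.3 over the members and -0.02 over all genes. Ccng2 rose from 13.6 to 58.3 CPM at E8.5, from 10.3 to 31.2 and 12.4 to 33.0 at E9.5, from 15.1 to 42.0 and 15.2 to 30.7 in the controls of E10.5, and from 21.9 to 69.0 and 13.8 to 38.9 in the null libraries. It was higher in 7 of 7 libraries, and the early and later levels did not overlap (1.53 ± 0.11, edgeR adjusted p = 2.4e-06). The share of all genes without such an overlap was not taken.

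Cdkn1a was also higher in 7 of 7 (2.55 ± 0.51, edgeR adjusted p = 0.0014), from 7.26 to 231 CPM at E8.5 but only from 2.57 to 4.62 in control E10.5 replicate 1. Gadd45a was higher in 6 of 7 libraries (1.64 ± 0.33, edgeR adjusted p = 0.0015), E8.5 being the exception. Gadd45g (1.87 ± 0.58, edgeR adjusted p = 0.017) and Btg2 (1.30 ± 0.43, edgeR adjusted p = 0.022) were each higher in 6 of 7 libraries. These 2 calls did not hold over the 4 libraries of E10.5, with 1.18 (adjusted p = 0.097) for Gadd45g and 0.56 (adjusted p = 0.24) for Btg2. Cdkn1b (0.32 ± 0.09, edgeR adjusted p = 0.0085) and Btg1 (0.29 ± 0.07, edgeR adjusted p = 0.0062) rose by small steps, the Btg1 call being lost with doublets kept (0.16, adjusted p = 0.076). Ccng1 did not pass the test (0.36 ± 0.16, edgeR adjusted p = 0.069), but passed with DESeq2 (0.42, adjusted p = 0.027) and in edgeR with DESeq2 size factors (0.42, adjusted p = 0.037), with the other cell filter (0.41, adjusted p = 0.048), without E8.5 (0.44, adjusted p = 0.016) and over the 4 libraries of E10.5 (0.57, adjusted p = 0.002). Cdkn2c fell in 6 of 7 (-2.54 ± 0.56, edgeR adjusted p = 0.0027).

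The lists placed these changes. All 12 neurogenic genes were higher in neuronal than in neural progenitor cells (list median 2.62), and 15 of 19 cyclins, kinases and replication genes were lower. Of 12 other inhibitors tested, Cdkn2b (5.07 ± 0.63) and Cdkn1c (1.65 ± 0.24) were higher and 6 were lower. Of 15 other p53 targets tested, 5 were higher and none lower, led by the kinase Plk2 (2.23). In later against early neuronal cells, Cdkn2b (4.53), Cdkn1c (2.79), Cdkn2d (1.14) and Rb1 (0.58) were higher, and 5 other inhibitors, with Wee1 (-2.51) and Rbl1 (-2.24) among them, were lower.

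The third comparison set subsets of mesenchymal cells against the remaining mesenchymal cells of the same 6 libraries, since the subsets were too small at E8.5. Acta2/Tagln cells were few, 60 to 178 per library. Of the 9 members 3 were higher in them and none lower, with 44.7% of 12806 genes called, 20.5% higher and 24.1% lower.

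In Acta2/Tagln cells Btg2 was at 2.57 CPM in control E9.5, 13.8 in null E9.5, 12.2 and 13.4 in the controls and 13.2 and 11.8 in the null libraries of E10.5; in the remaining cells it was at 1.73, 2.75, 3.58, 3.88, 2.67 and 5.73. It was higher in 6 of 6 libraries (1.82 ± 0.23, edgeR adjusted p = 0.00017). Btg1 was higher in 4 of 6 (0.26 ± 0.09, edgeR adjusted p = 0.038), and that call ended without the filter on low counts (0.16, adjusted p = 0.26). Ccng2 did not pass the test (-0.45 ± 0.17, edgeR adjusted p = 0.056), but was called lower without that filter (-0.53, adjusted p = 0.02), with gates on thinned cells (-0.49, adjusted p = 0.039) and over the 4 libraries of E10.5 (-0.64, adjusted p = 0.0031).

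Cdkn1a was higher in 5 of 6 libraries (2.38 ± 0.53, edgeR adjusted p = 0.0045), at 3.35 to 32.3 CPM where it was detected and without a UMI in control E9.5. This value rests on a handful of cells. The Acta2/Tagln cells held 185 Cdkn1a UMIs in all, and 11 cells had 3 or more of them. In Tbx1 null E10.5 replicate 2, 71 of its 74 UMIs lay in 1 cell, and in Tbx1 null E10.5 replicate 1 all 27 lay in 2 cells. In the other libraries where it was detected, 1 cell held 8 of 11 UMIs in control E10.5 replicate 1, 4 cells held 83.0% of 53 in control E10.5 replicate 2, and 3 cells held 80% of 20 in null E9.5.

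Markers of other cells moved with the Acta2/Tagln group. Cardiomyocyte genes summed to 219 to 3510 CPM in it against 1.56 to 3.9 in the remaining cells, epithelial genes to 190 to 489 against 13.9 to 23.3, and endothelial genes to 3.01 to 45.3 against 0.566 to 6.26. Of the 4 epithelial genes Krt8 and Krt18 carried this difference. Epcam was at 0.641 to 2.62 CPM in the group and at 0.682 to 4.78 in the remaining cells of all 7 libraries, and Cdh1 was not detected in the group. Smooth muscle genes other than the gate summed to 522 to 1120 against 12.4 to 45.9. Of 12 immediate-early and heat shock genes tested 9 were higher and 1 lower (Atf3 at 4.66, Fos at 2.95). The part of these in the levels of Btg2 and Cdkn1a was not tested. Of the 19 cyclins, kinases and replication genes 14 were lower and 2 higher. Among the other inhibitors Gadd45b (2.81), Cdkn1c (2.52) and Btg3 (1.18) were higher and Wee1 (-0.43) was lower, and of 14 other p53 targets tested 4 were higher, with Perp at 4.93 and Fas at 2.43, and 2 lower.

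In Foxf1 cells 2 of 9 members differed, where 12.4% of genes were called, 5.84% higher and 6.52% lower. Cdkn1a was lower in 5 of 6 libraries (-1.86 ± 0.51, edgeR adjusted p = 0.036), at 0 to 1.84 CPM against 1.41 to 3.02 in the remaining cells. This value rests on few cells. Of the 106 to 372 Foxf1 cells of a library, 0 to 2.02% held a Cdkn1a UMI before thinning. The call ended over the 4 libraries of E10.5 (-2.06, adjusted p = 0.059), with the other cell filter (-1.6, adjusted p = 0.054) and with doublets kept (-1.16, adjusted p = 0.15). Btg1 was at 105 and 101 CPM in the Foxf1 cells of the E10.5 controls against 65.1 and 63.5 in the remaining cells, and was higher in 4 of 6 libraries (0.36 ± 0.11, edgeR adjusted p = 0.046). Without Tbx1 null E10.5 replicate 2 its adjusted p was 0.063. Over the 4 libraries of E10.5 alone Gadd45g passed the test too, and was lower in Foxf1 cells (-1.24 ± 0.13, adjusted p = 0.00022), as it was without the filter on low counts (-0.82, adjusted p = 0.021). With doublets kept, Btg2 (0.78, adjusted p = 0.0086) and Cdkn1b (0.21, adjusted p = 0.041) were called higher.

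In Hox 3 cells none of the 9 members passed edgeR's test, where 10.7% of genes were called, 4.95% higher and 5.78% lower. At an unadjusted p under 0.05 were 2 members, beside 26.9% of genes. These were Btg1 (0.13) and Ccng2 (0.26 ± 0.08, adjusted p = 0.077). DESeq2 called none either. With doublets kept, Btg2 (1.04, adjusted p = 0.00087), Gadd45g (0.84, adjusted p = 0.015) and Btg1 (0.16, adjusted p = 0.024) were called higher, Btg1 also with the other cell filter (0.15, adjusted p = 0.044), and Cdkn1a over the 4 libraries of E10.5 (0.68, adjusted p = 0.045).

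The uneven spread of Cdkn1a was not limited to Acta2/Tagln cells. Mesenchymal cells of all libraries held 1239 Cdkn1a UMIs, and 125 cells with 3 or more of them, 0.272 to 0.965% of a library's mesenchymal cells, held 46.0 to 90.4% of the UMIs (median 73.5%). By the same measure the median over libraries was 5.17% for Btg2, 39.3% for Gadd45g and 41.0% for Btg1, the last of which many cells carry. Of the mesenchymal cells with 3 or more Cdkn1a UMIs, 0 to 23.1% lacked Mki67 and Top2a UMIs, against 2.88 to 10.4% of the rest, the share being higher in 5 of 7 libraries.

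Mesenchymal cells with 2 or more Cdkn1a UMIs, 13 to 42 per library, were therefore set beside those with none. This split was chosen after its values were seen and has no test. The cells had medians of 19214.5 to 25472 UMIs against 16353.5 to 25349, higher in 4 of 7 libraries, and 0 to 14.3% of them belonged to the Acta2/Tagln group against 0.409 to 4.93%. Levels are unscaled CPM.

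Ccng1 was higher in the cells with Cdkn1a in 7 of 7 libraries. It was at 64.1 against 11.1 at E8.5, 78.7 against 6.36 in control E9.5 and 127 against 8.64 in null E9.5, 73.1 against 9.27 and 64.2 against 9.02 in the controls of E10.5, and 67.2 against 12.8 and 39.2 against 10.1 in the null libraries of E10.5. It was the sole member of the other 8 higher in every library. Btg2 was higher in 6 of 7, Btg1 and Gadd45a in 5 of 7, Cdkn1b, Cdkn2c and Ccng2 in 3 of 7 and Gadd45g in 2 of 7.

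Of 16 other p53 targets, 11 were higher in the cells with Cdkn1a in every library. Of these 16, 11 were among the 12106 genes detected well enough to serve as background, and 9 of those 11 were higher in every library, beside 353 of the 12106 or 2.92%. None was lower in every library, as 5.72% of genes were. Mdm2, which degrades p53, was at 35.6 to 103 against 16.4 to 37.2, Phlda3, an Akt inhibitor, at 36.5 to 164 against 6.84 to 22.2, Zmat3 at 21.7 to 44.2 against 8.63 to 12.7, and Bax, of the mitochondrial cell death pathway, at 269 to 509 against 218 to 339. Trp53 itself, the p53 gene, is counted among the 16 and was higher in 2 of 7 libraries. Of the 13 other inhibitors Cdkn1c (90.2 to 6470 against 43.8 to 675) and Rb1 (2.37 to 31.4 against 1.33 to 6.77) were higher in every library, and of 8 FoxO targets 1 was. Ccna2, Cdk6 and Mcm2 were lower in every library, Ccna2 at 44.5 to 142 against 101 to 194. The same split by Gadd45g, over 6 libraries, gave 0 of 8 members higher and 0 lower in each library, beside 4.65% and 5.09% of genes.

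**Figure D4:**
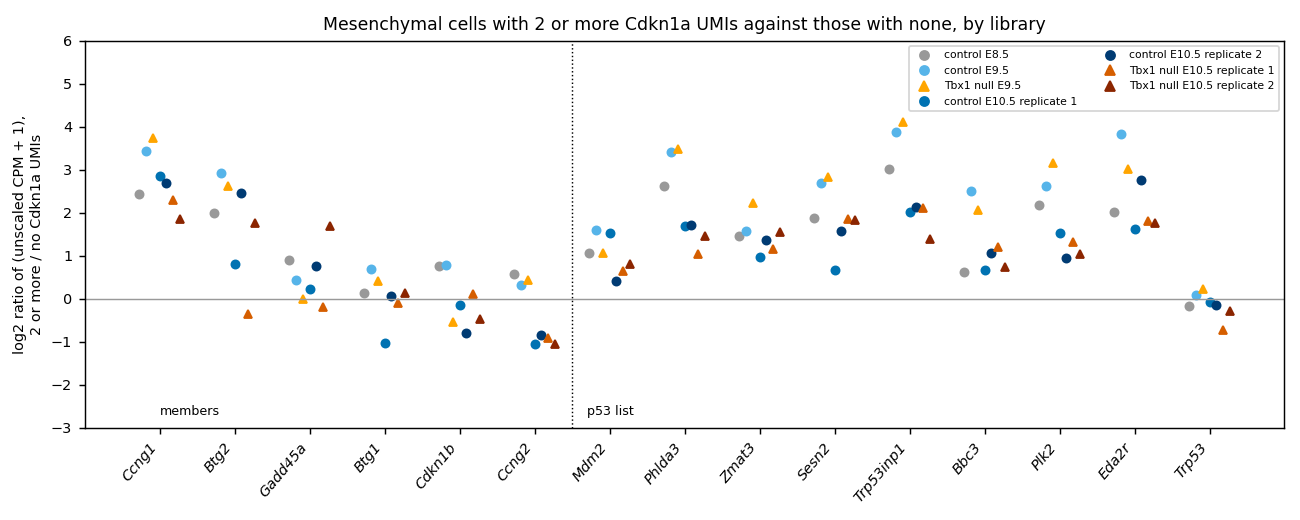
Mesenchymal cells with 2 or more Cdkn1a UMIs against those with none, as the log2 ratio of (unscaled CPM + 1). Shown are 6 members and 9 genes of the p53 list, Trp53 among them, and each point is 1 of the 7 libraries. Ccng1 and Mdm2 lie above 0 in all 7 libraries, while Trp53 does so in 2.

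Sox10 cells differed from mesenchymal cells in 2 of the 9 members, where 29.9% of genes were called, 11.9% higher and 18% lower. Btg1 was higher in 6 of 7 libraries (0.73 ± 0.13, edgeR adjusted p = 0.0049), with 131 and 122 CPM in the controls of E10.5 against 69.2 and 66.9 in mesenchymal cells, and 41.1 against 46.9 at E8.5, the exception. Gadd45g was lower in 7 of 7 (-0.58 ± 0.14, edgeR adjusted p = 0.013), with 15.8 and 12.5 against 20.6 and 23.7 CPM in the controls of E10.5. Over the 4 libraries of E10.5 alone Ccng2 was lower in Sox10 cells (-0.90 ± 0.11, adjusted p = 3.6e-05) and Ccng1 higher (0.43 ± 0.14, adjusted p = 0.025). Among the other inhibitors Rb1 (1.10) was higher and Tob1 (-0.95) lower, and 10 of 19 cyclins, kinases and replication genes were lower. Of 12 neurogenic genes 7 were higher in Sox10 cells and none lower, while Gadd45g was lower.

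The stages were compared as E10.5 against E9.5 with genotype as a covariate, over 4 and 2 libraries. The tissue taken changed with the stage. Hox 3 mesenchymal cells were present in both dissections, but control dissections reached the third arch at E9.5 and the sixth at E10.5. In these cells 5 of 9 members were higher at E10.5 and none lower, where 27.3% of genes were called, 14.7% higher and 12.5% lower. Gadd45g was at 1.91 and 1.63 CPM in control and null at E9.5, and at 34.9, 36.6, 7.77 and 43.2 in the controls and null libraries of E10.5 (4.08 ± 0.68, edgeR adjusted p = 0.0028). Every E10.5 library lay above both E9.5 libraries, with Tbx1 null E10.5 replicate 1 the lowest of the 4.

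Ccng2 was at 5.63 and 11.7 CPM at E9.5 and at 26.0, 20, 45.5 and 31.5 at E10.5 (1.84 ± 0.24, edgeR adjusted p = 0.0011). Cdkn1b was at 10.1 and 12.1 CPM at E9.5 and at 25.6, 33.6, 20.7 and 25.1 at E10.5 (1.21 ± 0.23, edgeR adjusted p = 0.0055). In both genes, as in Gadd45g, the stages did not overlap. The share of all genes separated in this way was not taken. Btg2 (1.39 ± 0.36, edgeR adjusted p = 0.018) and Btg1 (0.94 ± 0.18, edgeR adjusted p = 0.0048) were higher as well. Immediate-early and heat shock genes moved with the stage in the same cells, with Jun higher (1.77) and Hspa1a lower (-2.43), and their part in these differences was not tested. Markers of other classes moved too: Sox10-class genes summed to 133 and 200 CPM in the Hox 3 cells of E9.5 against 34.0 to 61.9 at E10.5, Foxf1-class genes to 11.3 and 9.89 against 78.4 to 101, and neuronal genes to 7.9 and 10.1 against 21.3 to 61.1. Their part was not tested either.

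Btg1 and Btg2 were higher at E10.5 in each of the 4 classes tested. Sox10 cells gave 3 higher and 1 lower where 23.8% of genes were called, 11.9% in each direction: Gadd45g (2.89 ± 0.57, edgeR adjusted p = 0.0017), Btg2 (1.57 ± 0.41, edgeR adjusted p = 0.0094) and Btg1 (1.20 ± 0.20, edgeR adjusted p = 0.00039) were higher and Gadd45a was lower (-1.16 ± 0.24, edgeR adjusted p = 0.0021). Neural progenitor cells gave 3 calls where 9.65% of genes were called, 5.56% higher and 4.09% lower, with Btg2 (1.40 ± 0.21, edgeR adjusted p = 0.0027) and Btg1 (0.89 ± 0.18, edgeR adjusted p = 0.012) higher and Gadd45a lower (-1.0 ± 0.19, edgeR adjusted p = 0.0091). Neuronal cells gave 3 higher where 18.4% were called, 11% higher and 7.44% lower, namely Btg1 (0.94 ± 0.17, edgeR adjusted p = 0.014), Btg2 (0.94 ± 0.20, edgeR adjusted p = 0.02) and Ccng2 (0.84 ± 0.23, edgeR adjusted p = 0.039). Gadd45g did not pass the test between stages in neural progenitor cells (-0.07 ± 0.26, edgeR adjusted p = 0.87) or neuronal cells (0.11 ± 0.21, edgeR adjusted p = 0.73).

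Markers moved with stage in these classes too. In Sox10 cells the mesenchymal gate genes summed to 378 and 354 CPM at E9.5 against 11 to 33.6 at E10.5, further neural progenitor genes to 245 and 241 against 377 to 730, and further neuronal genes to 15.5 and 15.4 against 52.1 to 93.0. Further neuronal genes summed to 23.4 and 25.5 CPM at E9.5 against 49.2 to 104 at E10.5 in neural progenitor cells, and to 185 and 269 against 565 to 1530 in neuronal cells. Immediate-early and heat shock genes summed to 326 and 383 CPM against 485 to 630 in Sox10 cells (4 called higher and 2 lower of 11 tested), to 305 and 357 against 484 to 650 in neuronal cells (2 higher of 13) and to 288 and 332 against 297 to 461 in neural progenitor cells (2 lower of 13). The part of these genes and markers in the differences between stages was not tested.

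With 2 libraries at E9.5, many of these calls ended when 1 of them was left out. Without control E9.5, 12 of the 15 calls ended, and without null E9.5, 6 of 15, and no estimate of these 15 turned. Without control E9.5 the adjusted p of Gadd45g in Hox 3 cells was 0.075 (3.93 ± 1.02), that of Btg2 in neural progenitor cells 0.10 (1.11 ± 0.30) and that of Btg1 in neuronal cells 0.23 (0.91 ± 0.28). Without null E9.5 the adjusted p of Btg2 in Hox 3 cells was 0.07 (1.69 ± 0.51). In neuronal cells the Ccng2 call also ended without control E10.5 replicate 1 (0.80, adjusted p = 0.073) or Tbx1 null E10.5 replicate 1 (0.69, adjusted p = 0.056).

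The last comparison asked whether loss of Tbx1, a transcription factor of the pharyngeal endoderm and mesoderm next to the NCCs, was accompanied by a change of the inhibitors at E10.5, with 2 control and 2 null libraries. None of the members tested passed edgeR's test in any of 10 cell groups, and DESeq2 called none. At an unadjusted p under 0.05 were 2 of 9 members in mesenchymal cells, 2 of 8 in Acta2/Tagln cells, 0 of 8 in Foxf1, 1 of 8 in Hox 3 and 1 of 9 in the remaining cells. In mesenchymal cells without Mki67 or Top2a UMIs there were 4 of 8 and in those with them 1 of 9, in Sox10 cells 2 of 7, in neural progenitor cells 1 of 9 and in neuronal cells 0 of 9. Among all genes the shares at an unadjusted p under 0.05 were, in the same order, 12.1%, 10.5%, 11.4%, 11%, 12.9%, 12.2%, 12.3%, 11.3%, 8.18% and 8.45%. Few genes of any kind were called after adjustment: 0.0914% in mesenchymal cells, 0.0872% in Acta2/Tagln, 0.111% in Foxf1, 0.031% in Hox 3 and 0.247% in the remaining cells, 0.155% and 0.125% in those without and with Mki67 or Top2a UMIs, 0.306% in Sox10, 0.0459% in neural progenitor and 0% in neuronal cells.

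**Figure D5:**
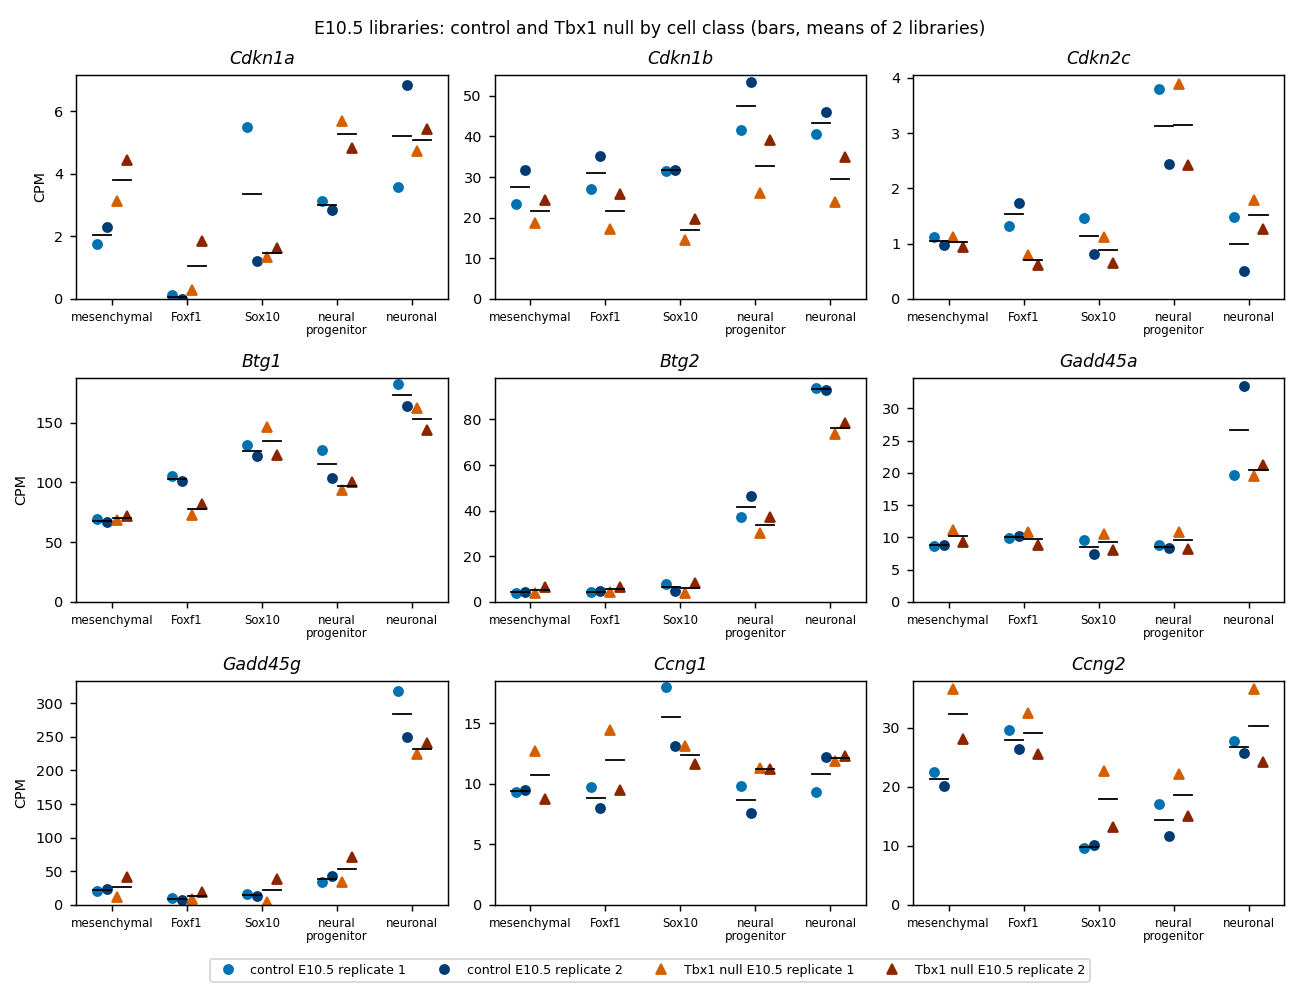
CPM of the 9 genes in the 4 libraries of E10.5, with 5 cell classes in each panel; points are the 2 control and the 2 null libraries and bars are their means. In mesenchymal cells Ccng2 lies at 22.5 and 20.1 CPM in the controls and 36.6 and 28.0 in the null libraries, while the 2 null libraries of Gadd45g lie on either side of the controls, at 11.6 and 41.4.

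Ccng2 had a higher estimate and Cdkn1b a lower one in the null libraries in all 10 cell groups, groups that share cells and libraries. The share of all genes that kept 1 direction over these groups was not taken. Ccng2 in mesenchymal cells was at 22.5 and 20.1 CPM in the controls and 36.6 and 28.0 in the null libraries (0.60 ± 0.23, edgeR adjusted p = 0.36), and in Sox10 cells at 9.54 and 10.1 against 22.6 and 13.2 (0.94 ± 0.31, edgeR adjusted p = 0.30). The libraries of the genotypes did not overlap in either class. With 2 libraries on each side such a separation can arise without a difference between genotypes. Its share over all genes was not taken, here or for Cdkn1b below. The make-up of mesenchymal cells differed as well, with Hox 3 cells at 17.7 and 14.7% of them in the controls and 38.0 and 43.4% in the null libraries. In the remaining mesenchymal cells, which hold no Hox 3 cells, Ccng2 was at 21.4 and 19.8 CPM against 29.8 and 27.9. Without Tbx1 null E10.5 replicate 2, Ccng2 passed the test in Hox 3 cells (1.00 ± 0.24, adjusted p = 0.001), in mesenchymal cells with Mki67 or Top2a UMIs (0.76 ± 0.21, adjusted p = 0.048) and without them (1.20 ± 0.31, adjusted p = 0.027), and in Sox10 cells (1.21 ± 0.30, adjusted p = 0.0045). In every fit without that library the 1 null library left was made with the earlier kit version and both controls with the later one, so that genotype and kit cannot be told apart, here or for the genes that follow. At E9.5, where the null library also had the earlier kit, Ccng2 was at 10.7 CPM in it and 6.2 in the control in mesenchymal cells, and at 13.6 and 7.6 in Sox10 cells.

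Cdkn1b in Sox10 cells was at 31.5 and 31.8 CPM in the controls and 14.4 and 19.7 in the null libraries (-0.90 ± 0.27, edgeR adjusted p = 0.27), and in mesenchymal cells at 23.3 and 31.8 against 18.8 and 24.3 (-0.36 ± 0.24, edgeR adjusted p = 0.57). The genotypes were apart in Sox10 cells and overlapped in mesenchymal cells. Markers were apart too in these Sox10 cells: further Sox10-class genes summed to 1230 and 997 CPM in the controls against 797 and 819, further neural progenitor genes to 730 and 630 against 377 and 537, and mesenchymal gate genes to 11 and 14.2 against 27.3 and 33.6. The first 2 lists share Fabp7, at 64.1 to 515 CPM in Sox10 cells over the 7 libraries, so these sums are not separate. The part of these markers in the Cdkn1b and Ccng2 values was not tested. Without Tbx1 null E10.5 replicate 2 it was called in Sox10 cells (-1.13 ± 0.30, adjusted p = 0.0086) and neural progenitor cells (-0.84 ± 0.26, adjusted p = 0.049).

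Gadd45g differed widely between the null libraries in mesenchymal and Sox10 cells. In Sox10 cells it was at 15.8 and 12.5 CPM in the controls and 5.01 and 39.1 in the null libraries (0.56 ± 0.60, edgeR adjusted p = 0.76), and in mesenchymal cells at 20.6 and 23.7 against 11.6 and 41.4 (0.25 ± 0.49, edgeR adjusted p = 0.86). Its direction depended on which null library was left out. Without replicate 2 it was lower in the null, at -0.92 ± 0.23 (adjusted p = 0.042) in mesenchymal, -2.19 ± 0.28 (adjusted p = 7.7e-13) in Hox 3 and -1.45 ± 0.36 (adjusted p = 0.0047) in Sox10 cells. Without replicate 1 it was higher, at 0.90 ± 0.21 (adjusted p = 0.037) in mesenchymal, 1.25 ± 0.33 (adjusted p = 0.008) in Foxf1, 1.48 ± 0.22 (adjusted p = 0.004) in the remaining mesenchymal and 1.56 ± 0.29 (adjusted p = 0.016) in Sox10 cells. With a genotype left at 1 library, these fits take that library to vary as the others do.

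Replicate 2 is also the library with the most neuronal transcripts in the mesenchymal cells of E10.5. Its mesenchymal Tubb3 level was 4.82% of that of its neuronal cells, against 0.724 to 1.18% in the other E10.5 libraries. Gadd45g at that share of its neuronal level would be 11.6 CPM of the 41.4 measured, and 1.8 to 3.77 CPM in the others. The same share gave more than the measured level in control E8.5 (6.85 against 1.17 CPM) and control E9.5 (3.12 against 2.7). In null E9.5 it gave 2.27 against 3.51. The share can thus overstate what neuronal RNA carries. The part of neuronal RNA in the mesenchymal Gadd45g level was not tested beyond this.

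Cdkn1a was at 1.76 and 2.31 CPM in mesenchymal cells of the controls and 3.13 and 4.46 in the null libraries (0.89 ± 0.32, edgeR adjusted p = 0.35). In mesenchymal cells without Mki67 or Top2a UMIs it was at 9.09 and 6.4 against 12.7 and 28.5 (1.49 ± 0.39, edgeR adjusted p = 0.16). The single cell of Tbx1 null E10.5 replicate 2 with 71 Cdkn1a UMIs, which had no Mki67 or Top2a UMI, makes up 71 of the 156 Cdkn1a UMIs of that library's mesenchymal cells. In the remaining mesenchymal cells, to which that cell does not belong, the libraries held 1.73 and 1.76 CPM in the controls and 3.02 and 1.41 in the null, which overlap. Calls of Cdkn1a appear in Acta2/Tagln cells without control E10.5 replicate 2 (2.82 ± 0.56, adjusted p = 0.0071) or Tbx1 null E10.5 replicate 1 (1.99 ± 0.34, adjusted p = 1.2e-06), and in cells without Mki67 or Top2a UMIs without Tbx1 null E10.5 replicate 1 (1.97 ± 0.33, adjusted p = 5.3e-05). That cell is in each of these sums.

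Whether the null effect differed between mesenchymal cells with and without Mki67 or Top2a UMIs was tested by an interaction term, which called 0 of 14141 genes and no member; 1 member had an unadjusted p under 0.05, as had 788 genes or 5.57%. The same test between Foxf1 and the remaining mesenchymal cells called 1.69% of genes and 1 member, Btg1.

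The genes whose levels ran most like each member over 46 sums of classes and libraries were named from 7722 genes by Pearson's r of log2 levels, as a description: these sums share libraries, depth and cell classes. Gadd45g ran most like Map2 (0.88), Hes6 (0.87) and Nhlh2 (0.87), and Btg2 like Map1b (0.93), Rnd2 (0.93) and Elavl3 (0.92), all genes of neurons or their precursors. Cdkn1b ran like Dmxl1 (0.93), Kmt2a (0.93) and Gm4258 (0.92), Btg1 like Megf9 (0.88), Atat1 (0.88) and Zbtb20 (0.87), and Ccng2 like Dhrs1 (0.86), Narf (0.86) and Zfp358 (0.84). Likeness was lower for Gadd45a (Calm2 at 0.82), Cdkn2c (Pdpn at 0.78), Ccng1 (Ncoa4 at 0.71) and Cdkn1a (Ucp2 at 0.67). The 3 genes nearest to Cdkn1a were Ucp2, Stmn4 and Dusp1 (0.60), and none was a p53 target of the list.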

How the data were processed

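Single-cell RNA-seq of sorted NCCs (10x Chromium) was analysed in 7 libraries. The authors made the deposited UMI counts with Cell Ranger 6.0.1 on mouse build mm10, and the counts are neither normalized nor filtered beyond the cell call; libraries held 140264662 to 234844769 UMIs. Genes with few UMIs are known with less precision. Cells with 1000 or more genes and at most 10% mitochondrial UMIs were kept, and 5156 doublets called by scrublet in scanpy 1.11.5, at 0.8% per 1000 barcodes, were removed. Sequencer and dissection differed by stage, and kit versions differed between and within stages.

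Cells were classed by the UMI minimums given in the text and by further rules that made the classes exclusive. Neuronal cells also had more Tubb3 and Stmn2 UMIs than mesenchymal gate UMIs. Sox10 cells also had fewer than 3 Tubb3 and Stmn2 UMIs. Mesenchymal cells also had more mesenchymal than neural progenitor gate UMIs, no fewer than Tubb3 and Stmn2 UMIs, and fewer than 3 of Sox10. Neural progenitor cells also had no fewer neural progenitor than mesenchymal gate UMIs, and fewer than 3 of Sox10 and of Tubb3 and Stmn2. Within mesenchymal cells the order was Acta2 and Tagln (10 or more UMIs), Foxf1 (2 or more) and Hox 3 genes (2 or more). Counts were summed per library and class (at least 20 cells) and tested over all genes with edgeR 4.0.16 in R 4.3.3 (TMM scaling, filterByExpr, glmQLFit and glmQLFTest), Benjamini-Hochberg adjusted, with an adjusted p under 0.05 as a call. Class comparisons had the library as a block, stage comparisons the genotype as a covariate. Errors are SE of the log2 fold change. DESeq2 1.42.0 and the other alternatives are given with the closing observations. The fits were tested on simulated data. Nothing in the labels says that libraries of a group came from separate days, so p-values measure the spread between these pools. The members and lists were chosen with earlier results of these data known. Named were the 9 members in every comparison, up to 4 called genes of largest change per list, and the 3 genes most like each member in level. Promoters and gene positions came from RefSeq (GRCm38.p6) and the annotation of the same build. In bulk sums, fewer cells with a transcript and less transcript per cell cannot be told apart, so shares of cells are given where this matters.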

Additional observations from a re-analysis of the deposited data

Results flagged for a closer look

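The effect of the null on Btg1 differed between Foxf1 and the remaining mesenchymal cells at E10.5 by a test of the difference itself, an interaction term (log2 difference -0.41 ± 0.09 SE, edgeR adjusted p = 0.048). The same term was called for 215 of 12702 genes, or 1.69%. In Foxf1 cells Btg1 was at 105 and 101 CPM in the controls and 72.4 and 82.3 in the null libraries (-0.40 ± 0.23), and in the remaining cells at 65.1 and 63.5 against 60.2 and 66.8 (0.00 ± 0.21). The call ended without control replicate 1 (-0.39, adjusted p = 0.50) and without control replicate 2 (-0.42, adjusted p = 0.48), the difference keeping its size.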

How the results depend on the processing

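Of 53 member calls, 53 were kept with DESeq2 size factors in edgeR, 51 with DESeq2, 52 without the filter on low counts (6 new), 49 with a cell filter of 200 genes and 5% mitochondrial UMIs and 50 with doublets kept (6 new). Gates set on thinned cells kept 41 of 45, leaving out E8.5 kept 37 of 38, and the 4 libraries of E10.5 kept 33 of 38. The fits of Acta2/Tagln and Foxf1 cells never held E8.5, so their calls were kept without a check. The thinned proliferation split kept 9 of 14, ended 4 and turned 1: it gave 4 members in mesenchymal cells instead of 7 and 0 in Sox10 cells instead of 2, where Gadd45g turned to 0.12. In the Sox10 split 1 member remained with thinned gates, 0 with the other cell filter and 1 with a minimum of 2 Mki67 and Top2a UMIs. Sox10 against mesenchymal cells gave 4 calls instead of 2 over the 4 libraries of E10.5. Foxf1 cells gave 1 instead of 2 with the other cell filter, and Hox 3 cells, with none in the text, gave 1 with that filter, 3 with doublets kept and 1 over the 4 libraries of E10.5. The cause was not tested. The median share of cells with a member's UMI was 5.05% thinned and 18.4% unthinned.

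For null against control, no filter on low counts gave 1 call, of Cdkn1a, in Acta2/Tagln cells and 1 in mesenchymal cells without Mki67 or Top2a UMIs. Stage as a covariate over 6 libraries gave 0 new calls of 83. Replicate numbers shared by the genotypes do not come from shared embryos, and deviations of same-numbered libraries correlated at 0.13 to 0.26 over only 2 pairs, so the libraries share a number only. The replicate block gave 1 call in Acta2/Tagln cells, 1 in mesenchymal cells without Mki67 or Top2a UMIs (both Cdkn1a) and 1 in Sox10 cells (Cdkn1b, -0.89), and 3 in all of 84 values.

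Leaving out 1 E10.5 library at a time gave 0 to 1 call in all mesenchymal, Acta2/Tagln, Foxf1, remaining and proliferation-negative mesenchymal cells and neural progenitor cells, 0 to 2 in Hox 3 and proliferation-positive cells, 0 to 3 in Sox10 cells and 0 to 0 in neuronal cells. Gadd45g turned without null replicate 2, to -0.92 in mesenchymal cells, -0.9 in those with Mki67 or Top2a UMIs and -1.45 in Sox10 cells, and stood at 0.9, 0.96 and 1.56 in the same groups without null replicate 1. Interactions gave 0 to 2 calls for the proliferation split and 0 to 3 for Foxf1. Stage comparisons gave 2 to 5 in Hox 3, 2 to 4 in Sox10, 0 to 4 in neural progenitor and 0 to 4 in neuronal cells, leaving out an E9.5 library being an alternative chosen after seeing the data. Without null replicate 2, chosen likewise, the class comparisons gave 7, 2 and 6 calls for the splits of mesenchymal, Sox10 and neural progenitor cells, 6 for neuronal against neural progenitor, 8 for later against early neuronal, 2 for Sox10 against mesenchymal, 3 for Acta2/Tagln, 1 for Foxf1 and 0 for Hox 3 cells. The Sox10 split never held that library, which had 19 Sox10 cells without Mki67 or Top2a UMIs, so its fit was the same. Thinned gates were not run for later against early neuronal cells. Depth limits what can be said of Cdkn1a and Cdkn2c, which few cells held.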

Other observations

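Among inhibitors outside the 9 members, Cdkn1c, which encodes the kinase inhibitor p57, was higher at E10.5 than at E9.5 in each of the 4 classes tested: by a log2 fold change of 1.12 ± 0.29 in Hox 3 mesenchymal cells (edgeR adjusted p = 0.019), 1.41 ± 0.21 in Sox10 cells (edgeR adjusted p = 0.00014), 1.13 ± 0.25 in neural progenitor cells (edgeR adjusted p = 0.018) and 1.75 ± 0.27 in neuronal cells (edgeR adjusted p = 0.0084). Gadd45b, the family member related to Gadd45a and Gadd45g, was higher in Sox10 cells (3.35 ± 0.53, edgeR adjusted p = 0.00025) and in Hox 3 cells (1.12 ± 0.37, edgeR adjusted p = 0.048). Trp53inp1, a p53 target, was higher in Hox 3 cells (3.04 ± 0.37, edgeR adjusted p = 0.00065) and Sox10 cells (1.60 ± 0.29, edgeR adjusted p = 0.00092), while the p53 targets Aen (-1.22 and -0.73) and Bax (-0.74 and -0.62) were lower in both. These comparisons rest on 2 libraries at E9.5, and stage cannot be told apart from the tissue taken.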
